A study of Mus musculus with 12 samples.

Results

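The genes of the TGF-beta and BMP pathway were followed in Schwann cells sorted on postnatal day 5 (P5) from mouse sciatic nerves. The members were 44 genes, found by their Ensembl mouse identifiers among the 25700 genes listed in the count table. They comprised 12 ligands, 5 genes of latency and activation, 12 receptors and coreceptors, 6 signal-carrying Smads, 4 inhibitors that act inside the cell and 5 inhibitors that act at the surface or are secreted. Of these members, 38 passed the filter on low counts and were tested, among 18597 tested genes in all. Bmp2, Inhbb, Gdf15, Smad6, Smad7 and Grem1 did not pass it.

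Every animal was P0Cre-/+ : ReYFP Tg/+ : βAct-DsRed Tg/+ on the C57bl/6J background, so that eYFP appeared after recombination by a Cre active in the Schwann cell lineage and DsRed in all cells, and no animal without these transgenes was included. Cells with eYFP were sorted by side scatter into high granularity (mSC, enriched for myelinating cells), low granularity (nmSC, enriched for not-myelinating cells) and the whole population (allSC), with 4 libraries per gate. Libraries 1 to 4 of each gate carry the numbers of 4 mice, each sample having been sorted from the suspension of 1 mouse. Both sexes were used, and the sex of a library was not known here. Full-length cDNA was made and amplified by the Smart-Seq2 protocol and read as bulk RNA.

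The libraries held 8180927 to 16918122 counted reads, and 3 counts corresponded to 0.198 to 0.374 CPM (counts scaled to the library total, adjusted by its TMM factor). Sox10, the transcription factor of the Schwann cell lineage, lay at 267 CPM in mSC and 266 CPM in nmSC. Mbp, a protein of the myelin sheath, was at a mean of 51980 CPM in mSC and 5643 CPM in nmSC, and Prx (periaxin, of myelinating Schwann cells) at 5541 and 1717 CPM. Library mSC replicate 4 stood apart from the others of its gate, with a chi-square per degree of freedom of 61.2 to 124.8 against them, where all other pairs of 1 gate gave 4.39 to 26.7. Calls of described genes between mSC and nmSC that were gained or lost without this library are given beside them. For the comparisons with allSC, lost calls are named, and gained calls appear only in the counts. In sorted bulk samples, fewer cells of a type and less RNA per cell cannot be told apart.

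TGF-beta ligands are secreted in a latent form, held in the matrix by latent TGF-beta binding proteins, and reach their receptors after release. BMPs, activins and TGF-betas assemble receptor pairs of type I and type II. TGF-beta and activin receptors act mainly through Smad2 and Smad3, BMP receptors through Smad1, Smad5 and Smad9, and both sets need Smad4. In peripheral nerve, TGF-beta is known as a regulator of the proliferation, death and differentiation of Schwann cells.

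The level of 14 of the 38 tested members was higher in nmSC than in mSC (36.8%, against a background of 20.2% of all tested genes), and that of 6 was higher in mSC (15.8%, background 20.4%), by edgeR's quasi-likelihood test with an adjusted p under 0.05. As a share of all 44 members these were 31.8% and 13.6%. Of the 14, Tgfb1, Bmp4, Eng, Smad9 and Chrd lay at the low level of reads also found on olfactory receptor genes. In a fit of only the mSC and nmSC libraries, Tgfb1, Bmp4 and Smad9 did not pass the filter on low counts and were not tested. Ltbp4 had the largest fall among the tested members, 23.4-fold, and Bmp7 the largest rise, 9.17-fold. The median log2 fold change of the tested members was -0.33, and that of all tested genes was -0.16.

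The split of the members depended on the scaling of the libraries. With library size alone the median of all tested genes moved to -0.73, the split of all tested genes changed from 3792 higher in mSC and 3748 higher in nmSC to 1443 and 10421, and the members changed from 6 and 14 to 1 and 23. Without mSC replicate 4, the counts of members were 8 higher in mSC and 14 higher in nmSC, beside 3930 and 3789 of 19369 tested genes.

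**Figure D1:**
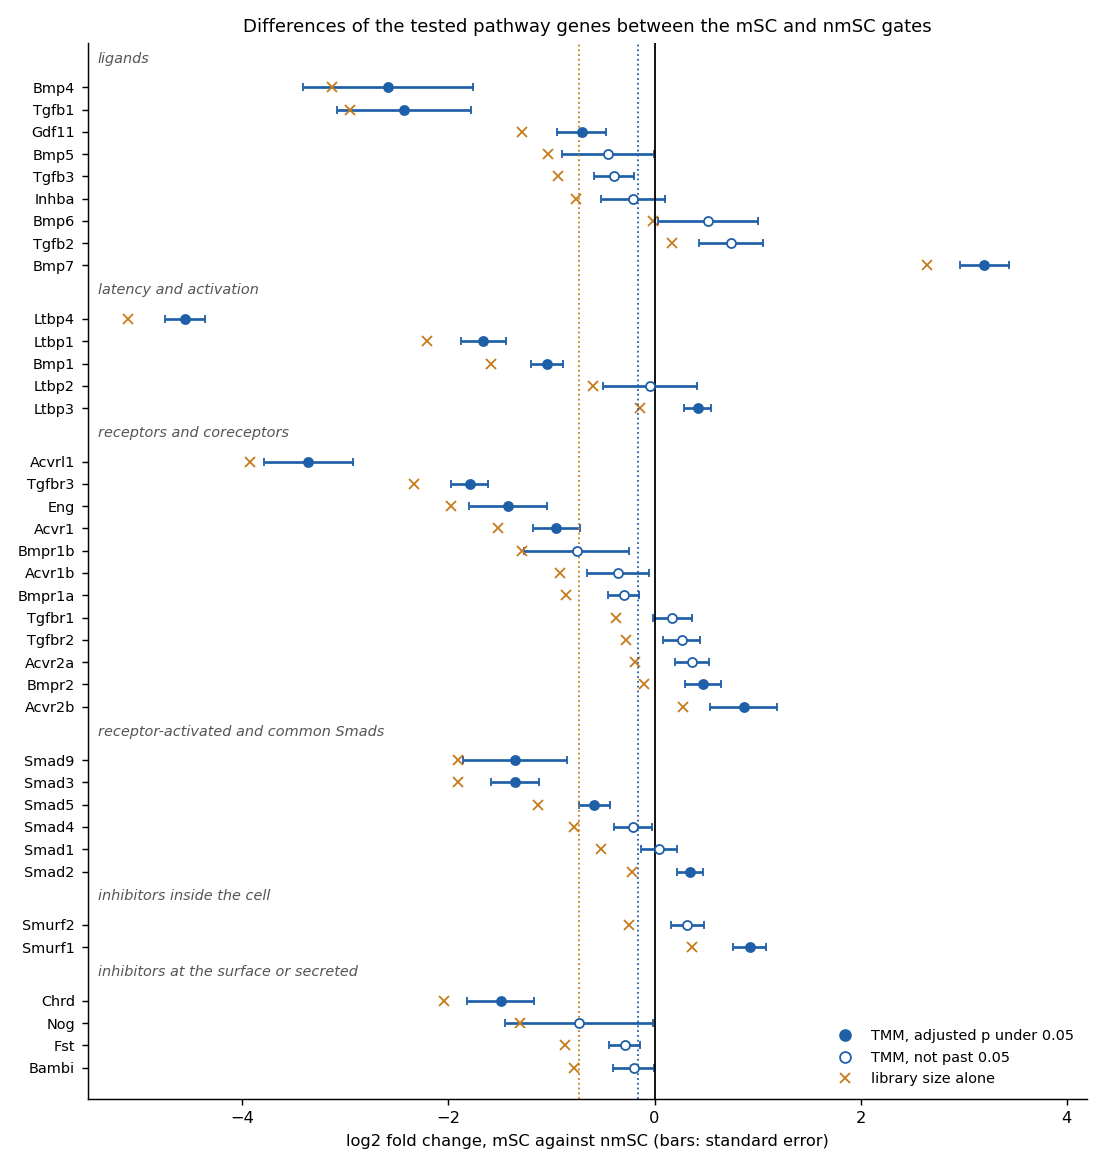
Log2 fold change of the 38 tested members between mSC and nmSC (horizontal axis, positive values higher in mSC), ordered by role, with standard errors as bars, filled points past an adjusted p of 0.05 and crosses for library size alone. Dotted lines mark the medians of all tested genes, -0.16 with TMM and -0.73 with library size alone, and Ltbp4 and Bmp7 lie farthest to either side.

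Levels between genes were compared per length, as RPKM (CPM per kilobase of the union of exons), averaged over the 12 libraries. Tgfbr3, the coreceptor betaglycan, which presents TGF-beta to its receptors, had the highest level at 57.5 RPKM. Fst (follistatin, a secreted binder of activins) followed at 29.1 RPKM, then Ltbp4 at 16.1, the activin type II receptor Acvr2a at 13.5, the TGF-beta type II receptor Tgfbr2 at 12.9 and the procollagen C-proteinase Bmp1 at 11.8 RPKM. This mean pools gates that differ, and the order was not the same in each: in mSC it ran Fst at 26.9 RPKM, Tgfbr3 at 25.2, Acvr2a at 15.0, Tgfbr2 at 13.6, Bmp1 at 7.60 and Ltbp4 at 1.30 RPKM. In nmSC it ran Tgfbr3 at 87.3 RPKM, Fst at 32.8, Ltbp4 at 30.8, Bmp1 at 15.6, Acvr2a at 11.6 and Tgfbr2 at 11.3 RPKM. Acvr2a and Tgfbr2 are not distinct in this order, since the levels of their libraries overlapped in every gate. In mSC the lead of Fst rested on replicate 4, at 35.8 RPKM for Fst and 14.6 RPKM for Tgfbr3. In mSC replicates 1 to 3 Tgfbr3 was above Fst (29.8 against 21.0, 28.0 against 27.5 and 28.3 against 23.3 RPKM). Neighbours also overlapped elsewhere, such as Fst with Ltbp4 and Bmp1 with Acvr2a in nmSC. In all, 22 members had at least 1 RPKM, and 8 members were under 1 CPM in every gate.

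A low level of reads was also present on genes that Schwann cells are not known to use. The 95th percentile of the mean level of 1510 olfactory and vomeronasal receptor genes was 0.619 RPKM, and 17 members lay at or under it, among them the called members Tgfb1, Bmp4, Eng, Smad9 and Chrd. Of 1030 tested receptor genes of this kind, 171 were called higher in nmSC (16.6%) and 0 higher in mSC by edgeR (1 at an unadjusted p under 0.05 and 1 by DESeq2), with a median log2 fold change of -0.73. The part of this level in the differences of the 5 called low members was not tested.

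**Figure D2:**
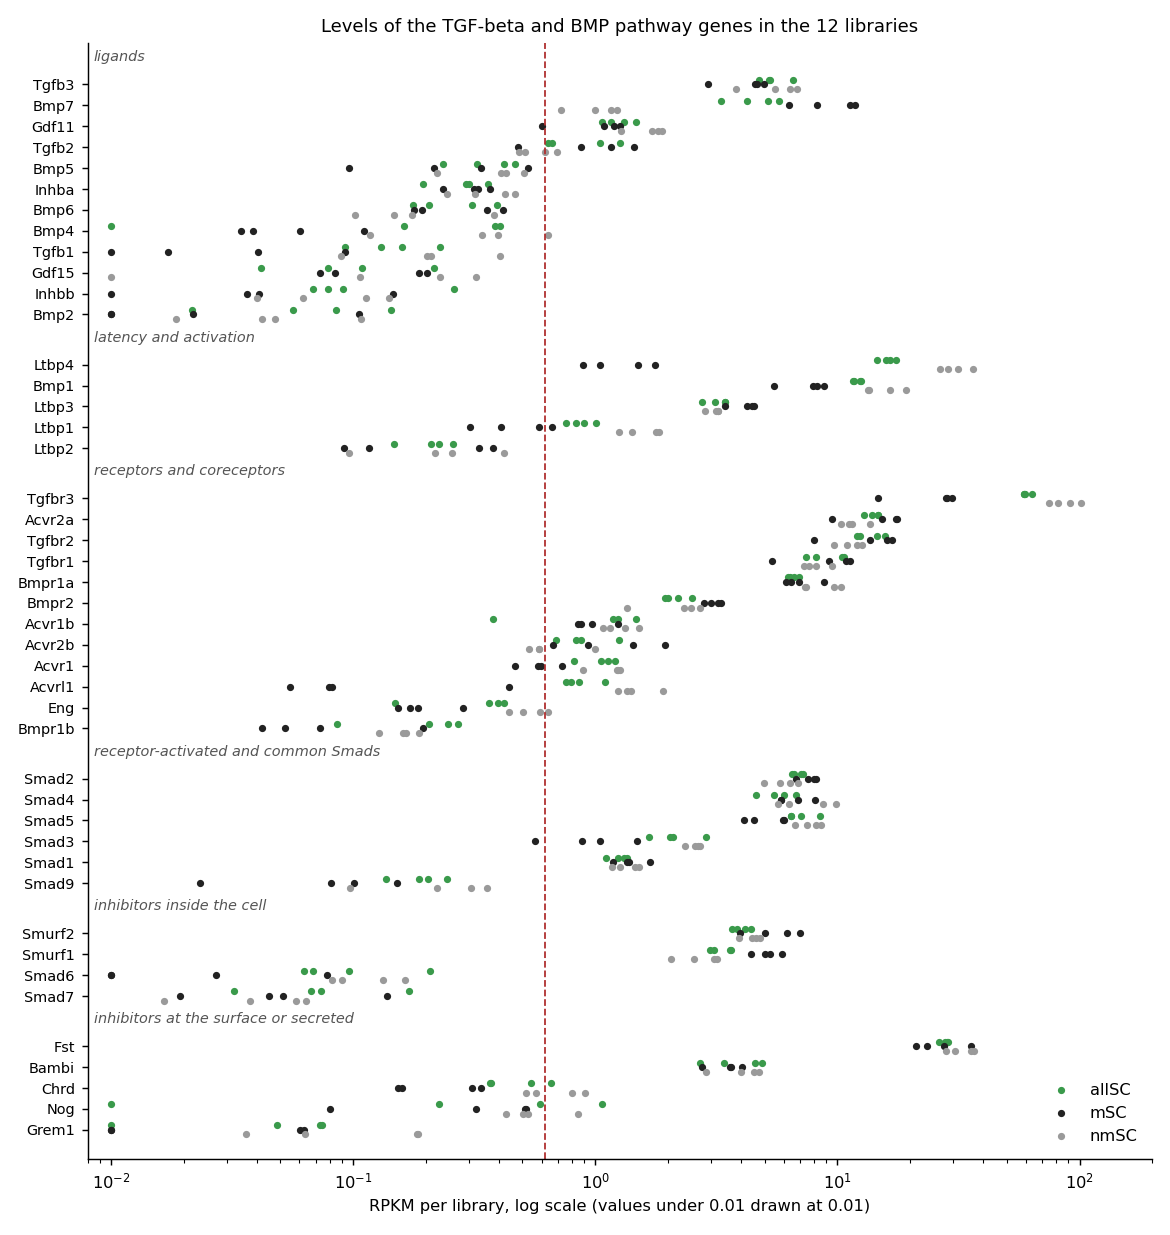
Level of each of the 44 members in each library in RPKM (log axis), ordered by role and by mean level, with a color for each gate. The dashed line is the 95th percentile of the receptor genes, 0.619 RPKM. Tgfbr3 and Fst lie at the top of the range, and 17 members have means at or under the line.

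Of the 12 ligand genes, 9 were tested, of which 1 was higher in mSC and 3 were higher in nmSC, where 20.4% and 20.2% of all tested genes were called in these directions. Bmp7, a BMP of the group of Bmp5 and Bmp6, was at 47.4, 45.2, 33.0 and 25.3 CPM in the mSC libraries. In nmSC it was at 4.03, 4.67, 4.92 and 2.90 CPM, and in allSC at 23.1, 20.8, 13.2 and 17.1 CPM. Every mSC library lay above every allSC library, and every allSC library above every nmSC library. The log2 fold change of mSC against nmSC was 3.20 ± 0.24 (SE, n = 4 per gate, adjusted p = 2.06e-09, edgeR quasi-likelihood test), and 2.65 with library size alone. Its closest relatives did not pass the test, with log2 fold changes of -0.45 ± 0.45 for Bmp5 and 0.52 ± 0.48 for Bmp6, both at a mean of under 1 RPKM, and that of Bmp6 was -0.015 with library size alone.

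Among the 3 TGF-beta isoforms, Tgfb3 had the highest level, 5.11 RPKM over the 12 libraries, followed by Tgfb2 at 0.824 RPKM and Tgfb1 at 0.139 RPKM. Tgfb3 was at 14.4 ± 3.1 CPM in mSC, 19.0 ± 4.5 CPM in nmSC and 18.4 ± 2.7 CPM in allSC (SD, n = 4), and the gates overlapped. Its log2 fold change was -0.39 ± 0.19 (adjusted p = 0.112, edgeR quasi-likelihood test). Exons of Tgfb3 share bases with Gm37804 and Gm48008 on the other strand, and whether the counting used strand is not given in the sources used here. Tgfb2 lay at 5.73 ± 2.39 CPM in mSC and 3.34 ± 0.56 CPM in nmSC and missed the threshold (adjusted p = 0.0622, edgeR). It passed with the size factors of DESeq2 (log2 fold change 0.81, adjusted p = 0.0441), with the Wald test of DESeq2 (0.82, adjusted p = 0.0295) and in edgeR without mSC replicate 1 (1.00, adjusted p = 0.00650).

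Tgfb1 was called from few reads. It had 3, 1, 6 and 0 counts in the mSC libraries and 11, 12, 6 and 31 counts in those of nmSC, so that the counts of the gates met at 6. The fitted log2 fold change was -2.43 ± 0.65 (adjusted p = 0.00603, edgeR quasi-likelihood test), and mSC was lower in 3 of 4 mice. Bmp4 had 1 or 2 counts in every mSC library and 4 to 15 counts in nmSC, with a fitted log2 fold change of -2.58 ± 0.82 (adjusted p = 0.0180, edgeR). The call of Bmp4 was lost without mSC replicate 2 (adjusted p = 0.0523, edgeR), mSC replicate 3 (0.0552) or nmSC replicate 1 (0.0619). Both genes lay at the level of the receptor genes, and Bmp4 also shares exon bases with Gm15217 on the other strand. Neither passed the filter on low counts in the fit of only the mSC and nmSC libraries, so neither was tested there.

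Gdf11, a ligand of activin receptors, was at 2.44, 4.87, 4.43 and 5.11 CPM in mSC and at 7.38, 6.96, 7.69 and 5.20 CPM in nmSC. All nmSC libraries lay above those of mSC, though by a small margin, and the log2 fold change was -0.71 ± 0.24 (adjusted p = 0.0237, edgeR quasi-likelihood test). The call was lost without 1 of 4 libraries in turn, with a highest adjusted p of 0.0819 without mSC replicate 1. Inhba, the subunit of activin A, did not pass the test (-0.21 ± 0.31 on the log2 scale). Bmp2, Inhbb and Gdf15 had at most 11 counts in any library, did not pass the filter on low counts and were not tested.

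Of the 5 genes of latency and activation, 3 were higher in nmSC (Ltbp4, Ltbp1 and Bmp1, background 20.2%), 1 was higher in mSC (Ltbp3, background 20.4%) and 1 did not pass the test (Ltbp2). Ltbp4, which binds latent TGF-beta1 and takes part in the assembly of elastic fibers, was at 6.79, 9.73, 11.4 and 5.74 CPM in mSC. It was at 172, 185, 234 and 204 CPM in nmSC and at 93.8, 102, 113 and 107 CPM in allSC. Every nmSC library was above every allSC library, and every allSC library was above every mSC library. Its log2 fold change was -4.55 ± 0.19 (adjusted p = 1.51e-12, edgeR quasi-likelihood test), with a range of -4.72 to -4.42 when 1 library was left out.

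Ltbp1, the main carrier of latent TGF-beta in many tissues, was at 7.06, 4.34, 6.29 and 3.24 CPM in mSC and at 15.2, 19.1, 13.4 and 19.6 CPM in nmSC. The libraries of allSC, at 8.87, 9.63, 8.08 and 10.8 CPM, fell between these gates without overlap. It differed by a log2 fold change of -1.66 ± 0.22 (adjusted p = 4.53e-06, edgeR quasi-likelihood test), and it was lower in mSC in all 4 mice. Bmp1, a protease that cleaves procollagens and can cut latent TGF-beta binding protein, was at 77.9, 72.7, 70.4 and 48.5 CPM in mSC and at 118, 120.1, 170.0 and 146 CPM in nmSC. In allSC it was at 104, 111, 103 and 110.4 CPM, again between the others, and the log2 fold change was -1.04 ± 0.15 (adjusted p = 1.82e-05, edgeR).

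Ltbp3, which also carries latent TGF-beta, moved the other way. It was at 40.9, 40.2, 38.5 and 31.1 CPM in mSC, at 29.0, 25.8, 29.2 and 28.7 CPM in nmSC and at 31.3, 28.2, 24.9 and 31.2 CPM in allSC. All mSC libraries lay above those of nmSC, mSC replicate 4 by the smallest margin, while mSC and allSC overlapped. The log2 fold change was 0.42 ± 0.13 (adjusted p = 0.0172, edgeR quasi-likelihood test), but -0.14 with library size alone, and it missed the threshold without nmSC replicate 2 (adjusted p = 0.0561). Ltbp2, which does not bind latent TGF-beta, was at 1.88 ± 1.20 CPM in mSC and 2.03 ± 1.10 CPM in nmSC, and its spread within each gate was larger than the difference.

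**Figure D3:**
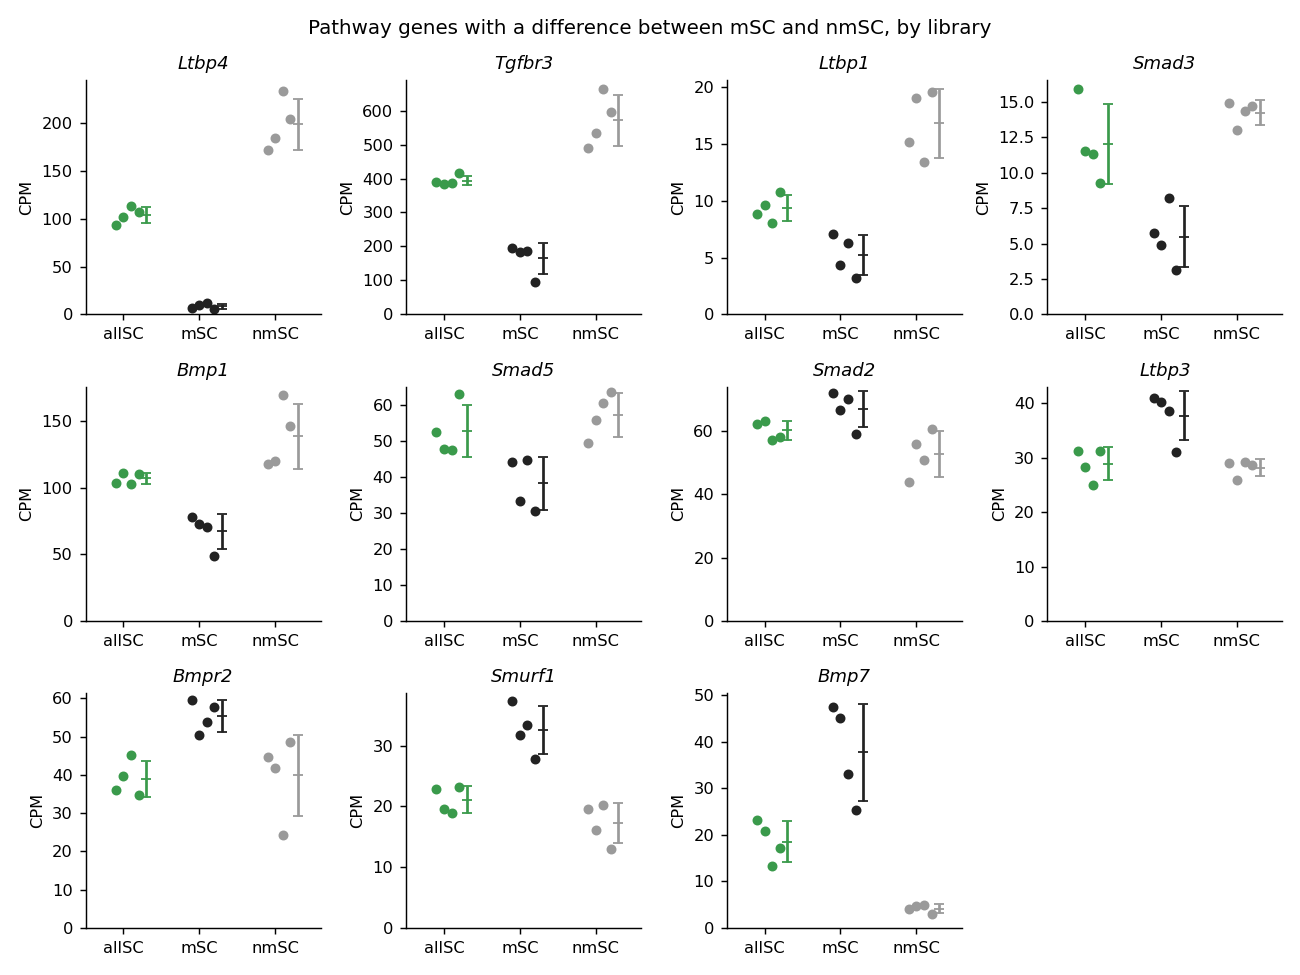
CPM by library of the 11 members that differed between mSC and nmSC (adjusted p under 0.05) and had a mean of at least 10 CPM, ordered by log2 fold change, with the vertical axis of each panel starting at 0. Points are the 4 libraries of each gate and bars are the mean and SD. The mSC and nmSC points overlap in the panel of Smad2. All panels were picked by the test between these gates, so the gap seen in the others is not separate support.

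The sequences before the starts of 4 of these 11 genes, set by name and not by a rule, are printed as genomic context. They are Ltbp4, Ltbp1 and Smad3, higher in nmSC, and Smurf1, higher in mSC. Each is the 250 bases before the outermost RefSeq start of the gene on GRCm38.p6, read 5′ to 3′ on the strand of the gene. RefSeq promoter sequences were matched for 32 of the 44 members, in 41 windows. Capitals mark the letters CAGAC, to which Smads can bind, GGCGCC, a site of BMP-activated Smads, GCGNGGGCG, the binding letters of Egr factors, and ACAAAG, the core of Sox sites, searched on both strands, with no overlap of the matches below.
Ltbp4, chr7:27337613-27337862, minus strand: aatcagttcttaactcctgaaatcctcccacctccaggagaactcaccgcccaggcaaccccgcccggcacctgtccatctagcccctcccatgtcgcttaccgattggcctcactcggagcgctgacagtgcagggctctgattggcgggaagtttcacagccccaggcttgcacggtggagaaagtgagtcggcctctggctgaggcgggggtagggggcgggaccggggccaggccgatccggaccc
Ltbp1, chr17:75005279-75005528, plus strand: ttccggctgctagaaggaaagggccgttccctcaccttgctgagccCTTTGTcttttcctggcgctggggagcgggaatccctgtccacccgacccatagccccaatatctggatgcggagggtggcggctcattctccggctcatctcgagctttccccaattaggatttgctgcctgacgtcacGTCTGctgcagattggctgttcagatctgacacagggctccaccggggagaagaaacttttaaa
Smad3, chr9:63757995-63758244, minus strand: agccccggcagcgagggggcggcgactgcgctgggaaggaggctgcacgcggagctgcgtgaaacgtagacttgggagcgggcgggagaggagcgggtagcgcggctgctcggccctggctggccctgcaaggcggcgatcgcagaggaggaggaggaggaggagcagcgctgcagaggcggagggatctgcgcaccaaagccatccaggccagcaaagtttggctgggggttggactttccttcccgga
Smurf1, chr5:144965831-144966080, minus strand: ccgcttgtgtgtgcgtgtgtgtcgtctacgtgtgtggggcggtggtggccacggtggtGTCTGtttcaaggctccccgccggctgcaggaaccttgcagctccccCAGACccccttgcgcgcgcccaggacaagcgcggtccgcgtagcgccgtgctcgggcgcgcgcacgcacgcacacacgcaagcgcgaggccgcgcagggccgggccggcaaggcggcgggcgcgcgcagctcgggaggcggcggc

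The windows of Ltbp4 and Smad3 held none of the 4 motifs. That of Ltbp1 held CAGAC once and ACAAAG once, both on the opposite strand, and that of Smurf1 held CAGAC at 2 positions. Over the windows of the members, CAGAC was present in 48.8%, GGCGCC in 24.4%, GCGNGGGCG in 12.2% and ACAAAG in 34.1%. Among 32851 windows of all genes, of the same length, the shares were 42.2%, 9.59%, 4.70% and 16.5%. A gene with several listed starts enters these shares with several windows. The letters describe these windows, and binding was not measured.

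All 12 receptor and coreceptor genes were tested, of which 4 were higher in nmSC (Tgfbr3, Acvrl1, Acvr1 and Eng, background 20.2%), 2 were higher in mSC (Bmpr2 and Acvr2b, background 20.4%) and 6 did not pass the test. Tgfbr3 was at 195, 183, 185 and 95.8 CPM in mSC and at 489.9, 535, 663 and 597 CPM in nmSC. The allSC libraries, at 389, 385, 386 and 415 CPM, lay close together between the other gates. No library crossed from 1 gate to another, and mSC replicate 4 was lower than the other mSC libraries. Tgfbr3 had a log2 fold change of -1.79 ± 0.18 (adjusted p = 1.05e-07, edgeR quasi-likelihood test), and -1.60 without mSC replicate 4. An exon of Tgfbr3 shares bases with Gm43422 on the same strand, so that reads there could not be assigned with certainty.

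Tgfbr1, the TGF-beta type I receptor, was at 73.6, 60.0, 70.7 and 35.1 CPM in mSC and at 47.7, 53.1, 49.8 and 61.8 CPM in nmSC. Tgfbr2 was at 138, 112, 131 and 65.2 CPM in mSC and at 90.01, 79.1, 103 and 98.8 CPM in nmSC, and Acvr2a was at 101, 99.0, 87.2 and 54.0 CPM in mSC and at 65.3, 63.8, 58.6 and 77.2 CPM in nmSC. In each of the 3 genes mSC replicate 4 was the lowest mSC library, under all nmSC libraries. None passed edgeR's quasi-likelihood test over all libraries, with adjusted p of 0.476, 0.252 and 0.0830. Acvr2a passed with the size factors of DESeq2 (0.43, adjusted p = 0.0435) and with its Wald test (0.43, adjusted p = 0.0367).

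Without mSC replicate 4 all 3 were called higher in mSC, Tgfbr1 by a log2 fold change of 0.36 (adjusted p = 0.0436, edgeR), Tgfbr2 by 0.45 (0.00702) and Acvr2a by 0.53 (0.000838). With library size alone their log2 fold changes were -0.37, -0.28 and -0.19. Acvr2a also shares exon bases with Orc4 on the other strand.

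Among the receptors of BMPs, Bmpr2, the type II receptor, was at 59.6, 50.5, 53.8 and 57.8 CPM in mSC and at 44.7, 41.9, 24.4 and 48.5 CPM in nmSC. The mSC libraries lay above all others, since allSC was at 36.0, 39.7, 45.3 and 34.8 CPM. The log2 fold change against nmSC was 0.47 ± 0.17 (adjusted p = 0.0358, edgeR quasi-likelihood test), it was -0.10 with library size alone, and the call was lost without 1 of 4 libraries, with 0.30 (adjusted p = 0.0840) without nmSC replicate 3. Bmpr1a, a type I receptor, did not pass the test, at 44.9 ± 7.6 CPM in mSC and 55.3 ± 9.7 CPM in nmSC (SD, n = 4). Bmpr1b had a mean of 0.151 RPKM, at the level of the receptor genes of smell, and did not pass the test.

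Acvr1, a type I receptor that binds BMPs and activins, was at 3.53, 2.26, 2.80 and 2.87 CPM in mSC and at 6.14, 5.94, 5.97 and 4.28 CPM in nmSC. These ranges were separate, and the log2 fold change was -0.95 ± 0.23 (adjusted p = 0.00261, edgeR quasi-likelihood test). Acvr2b, an activin type II receptor, was at 3.66, 5.65, 2.64 and 7.61 CPM in mSC and at 3.93, 2.29, 2.09 and 2.30 CPM in nmSC, and the gates overlapped. Its log2 fold change of 0.87 ± 0.33 (adjusted p = 0.0410, edgeR) lost its call with the mouse number as a block (0.84, adjusted p = 0.0706), with library size alone (0.28, adjusted p = 0.457) and without mSC replicate 4 (0.59, adjusted p = 0.142). Acvr1b, a type I receptor of activins, did not pass the test (-0.36 ± 0.30 on the log2 scale).

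Acvrl1 and Eng, a type I receptor and a coreceptor known chiefly from endothelium, were low. Acvrl1 was at 0.339, 0.348, 0.233 and 1.87 CPM in mSC and at 5.27, 5.77, 8.13 and 5.99 CPM in nmSC, with allSC at 3.64, 4.68, 3.39 and 3.22 CPM. Within mSC, replicate 4 was the highest library and the other 3 had 3 to 5 counts each, and all lay under allSC and nmSC. For Acvrl1 the log2 fold change was -3.36 ± 0.43 (adjusted p = 3.46e-06, edgeR quasi-likelihood test), and -4.32 without mSC replicate 4. Eng was at 1.15, 0.695, 0.621 and 0.749 CPM in mSC and at 2.59, 2.04, 2.39 and 1.78 CPM in nmSC, without overlap (log2 fold change -1.42 ± 0.38, adjusted p = 0.00580, edgeR).

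Of 7 endothelial markers, 2 were called higher in nmSC (Pecam1 and Tek) and 2 higher in mSC (Kdr and Egfl7), and Cldn5 was under 1 CPM in every gate. Their summed level ranged from 52.4 to 73.1 CPM in mSC and from 17.5 to 29.0 CPM in nmSC. Pecam1 rose from 1.25 CPM in mSC to 2.45 CPM in nmSC and Tek from 0.920 to 1.97 CPM, in the direction of Acvrl1 and Eng. Kdr and Egfl7 went the other way and were more abundant. Kdr was at 20.3 CPM in mSC and 5.88 CPM in nmSC, and Egfl7 at 35.6 and 9.25 CPM. The part of endothelial cells in these receptor values was not tested. Eng shares exon bases with Fpgs and Acvrl1 with Gm16031, each on the other strand.

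The 6 signal-carrying Smads divided within both branches of the pathway, with 3 higher in nmSC (Smad3, Smad5 and Smad9, background 20.2%), 1 higher in mSC (Smad2, background 20.4%) and 2 that did not pass the test (Smad1 and Smad4). Smad3 was at 5.77, 4.87, 8.23 and 3.12 CPM in mSC and at 15.0, 13.0, 14.3 and 14.8 CPM in nmSC. The nmSC libraries formed a narrow group above all mSC libraries, and allSC, at 15.9, 11.6, 11.3 and 9.25 CPM, overlapped with nmSC but not with mSC. Smad3 had a log2 fold change of -1.35 ± 0.23 (adjusted p = 0.000103, edgeR quasi-likelihood test).

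Smad2, the partner of Smad3 below TGF-beta and activin receptors, was at 71.8, 66.6, 70.1 and 59.1 CPM in mSC and at 43.8, 55.7, 50.7 and 60.6 CPM in nmSC, with allSC at 62.3, 63.2, 57.0 and 58.0 CPM. The mSC and nmSC gates overlapped, because mSC replicate 4 lay under nmSC replicate 4, and mSC was higher in 3 of 4 mice. For Smad2 the log2 fold change was 0.34 ± 0.13 (adjusted p = 0.0393, edgeR quasi-likelihood test), -0.22 with library size alone, and 0.34 with the mouse number as a block, where the call was lost (adjusted p = 0.0591). Leaving out 1 library kept the call in 5 of 12 fits, with the highest adjusted p of 0.115 without nmSC replicate 1.

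Smad5, which carries BMP signals, was at 44.2, 33.5, 44.6 and 30.6 CPM in mSC and at 49.4, 55.7, 60.4 and 63.5 CPM in nmSC, without overlap. Its allSC libraries, at 52.4, 47.8, 47.6 and 63.1 CPM, lay above those of mSC and overlapped with nmSC. Its log2 fold change was -0.58 ± 0.15 (adjusted p = 0.00482, edgeR quasi-likelihood test), and a part of an exon is shared with Gm27301 on the same strand. Smad1, in the same branch, was at 8.75 ± 1.30 CPM in mSC and 8.45 ± 1.01 CPM in nmSC, a difference smaller than the spread within the gates. Smad9 was low, with 12, 5, 7 and 1 counts in mSC and 20, 14, 7 and 25 counts in nmSC, and its call (-1.36 ± 0.50, adjusted p = 0.0383, edgeR) was lost with the block (-1.38, adjusted p = 0.0517) and in 7 of 12 fits without 1 library, mSC replicate 4 among them (-1.10, adjusted p = 0.0893). In the fit of only the mSC and nmSC libraries Smad9 did not pass the filter on low counts and was not tested.

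Smad4, the common partner of both branches, was at 24.7 ± 3.9 CPM in mSC, 28.4 ± 7.4 CPM in nmSC and 21.2 ± 3.3 CPM in allSC (SD, n = 4). Its gates overlapped, and the log2 fold change of -0.21 ± 0.18 did not pass the test. Per length, Smad2, Smad4 and Smad5 lay together at 6.82, 6.67 and 6.66 RPKM over the 12 libraries, above Smad3 at 1.91 and Smad1 at 1.33 RPKM.

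Inhibitors inside the cell were represented at measurable levels by Smurf1 and Smurf2, ubiquitin ligases that mark Smads and receptors for degradation. Smurf1 was at 37.4, 31.7, 33.5 and 27.8 CPM in mSC, at 19.6, 16.1, 20.2 and 13.0 CPM in nmSC and at 22.9, 19.5, 18.9 and 23.1 CPM in allSC. Of these, Smurf1 was called, higher in mSC (background 20.4%). Its mSC libraries lay above all others, in all 4 mice, while allSC and nmSC overlapped. The log2 fold change against nmSC was 0.92 ± 0.16 (adjusted p = 0.000105, edgeR quasi-likelihood test), and 0.36 (adjusted p = 0.0692) with library size alone. Smurf2 did not pass the test at 0.32 ± 0.16 on the log2 scale, which was -0.25 with library size alone.

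Smad6 and Smad7, the inhibitory Smads that the pathway itself is known to induce, were near the floor of the measurement. Smad6 had 0 to 2 counts in the mSC libraries and 3 to 7 counts in those of nmSC. Smad7 had 1 to 5 counts in mSC, 1 to 4 counts in nmSC and 2 to 10 counts in allSC. Neither passed the filter on low counts, and neither was tested.

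Among the secreted and surface inhibitors, 1 of 4 tested genes was called, higher in nmSC (background 20.2%). Chrd (chordin), which binds BMPs, was at 2.10, 0.956, 1.94 and 0.998 CPM in mSC and at 5.66, 3.23, 4.999 and 3.56 CPM in nmSC. The gates did not overlap and the log2 fold change was -1.49 ± 0.33 (adjusted p = 0.00117, edgeR quasi-likelihood test), but Chrd lay at the level of the receptor genes of smell and shares exon bases with Thpo on the other strand. Fst, the most abundant inhibitor among the members, was at 96.6, 126, 107 and 164 CPM in mSC and at 139.9, 129, 164 and 169 CPM in nmSC, with mSC replicate 4 within the range of nmSC. Fst did not pass the test over all libraries (-0.29 ± 0.15, adjusted p = 0.129, edgeR) and was called lower in mSC without that library (-0.45, adjusted p = 0.00484), and it shares exon bases with Gm47040 on the other strand.

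Bambi, a receptor-like inhibitor without a kinase, was at 17.8 ± 2.7 CPM in mSC and 20.5 ± 4.3 CPM in nmSC (SD, n = 4) and did not pass the test. Nog (noggin), another BMP binder, was under 2 CPM in every library and did not pass it, and Grem1 was not tested.

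The allSC gate, compared with each of the others, shares its libraries between both comparisons, so these are not independent. Against mSC, 9 of 38 tested members were higher in allSC (23.7%, background 8.8%) and 3 were higher in mSC (7.90%, background 8.76%). The 9 were Ltbp1, Ltbp4, Bmp1, Tgfbr3, Acvr1, Acvrl1, Smad3, Smad5 and Chrd, and the 3 were Bmp7, Bmpr2 and Smurf1. The largest difference was again that of Ltbp4, with a log2 fold change of 3.62 ± 0.19 (adjusted p = 1.51e-10, edgeR quasi-likelihood test), followed by Acvrl1 at 2.61 ± 0.44 (adjusted p = 0.000285, edgeR). With the mouse number as a block, the calls of Bmpr2 (-0.50, adjusted p = 0.0808), Smad5 (0.46, adjusted p = 0.0636) and Chrd (1.03, adjusted p = 0.0606) were lost in this comparison, and those of Smad5 (0.34, adjusted p = 0.0984) and Chrd (0.81, adjusted p = 0.110) were also lost without mSC replicate 4. Leaving out 1 library lost the call of Ltbp1 without allSC replicate 4 (adjusted p = 0.0525, edgeR) or mSC replicate 2 (0.0588) and that of Acvr1 in 4 fits, with a highest adjusted p of 0.0712 without mSC replicate 2. Bmpr2, Smad5 and Chrd lost their calls in most of these fits, with highest adjusted p of 0.115 (without allSC replicate 1), 0.172 and 0.148 (both without allSC replicate 4). Smad5 also lost its call with the size factors of DESeq2 (adjusted p = 0.0729) and its Wald test (0.0585).

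Against nmSC, 1 of 38 tested members was higher in allSC (2.63%, background 7.54%) and 2 were higher in nmSC (5.26%, background 2.83%). Bmp7 was higher in allSC by a log2 fold change of 2.17 ± 0.24 (adjusted p = 2.26e-06, edgeR quasi-likelihood test). Ltbp4 was lower in allSC (-0.94 ± 0.16, adjusted p = 0.000632) and so was Ltbp1 (-0.85 ± 0.21, adjusted p = 0.0102, edgeR). Tgfbr3 missed the threshold (-0.54 ± 0.17, adjusted p = 0.0518, edgeR), although its allSC and nmSC libraries did not overlap. Without mSC replicate 4, which is in neither gate of this comparison but shares its model, 6 members were called higher in nmSC, while the calls of all tested genes in that direction went from 526 of 18597 to 968 of 19369.

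Other genes of the pathway were taken from 6 lists, set with earlier results of these data known, and their counts stand beside a background of 20.4% of all tested genes higher in mSC and 20.2% higher in nmSC. Their called genes Thbs1, Pcsk6, Bmper, Rnf165, Atoh8, Msx1 and Cdkn2b lay under the 95th percentile of the receptor genes of smell, 0.619 RPKM. Of 21 further ligands, 9 were tested, 1 was higher in mSC and 0 were higher in nmSC by edgeR (1 at an unadjusted p under 0.05 and 0 by DESeq2). The called ligand was Gdf1, at 12.6 CPM in mSC and 7.41 CPM in nmSC, whose exons overlap those of Cers1 on the same strand and of Upf1 on the other, so that its reads were uncertain. With library size alone its call was lost. Bmp8b, another BMP, was at 5.01 CPM in mSC and 6.75 CPM in nmSC and did not pass the test.

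Of 16 further receptors and genes of ligand release, 13 were tested, 3 were higher in mSC and 2 were higher in nmSC (background 20.4% and 20.2%). Tll1, a protease of the same family as Bmp1, rose from 12.6 CPM in nmSC to 43.9 CPM in mSC (log2 fold change 1.80 ± 0.16, adjusted p = 2.55e-08, edgeR), opposite to Bmp1. Rgmb, a BMP coreceptor, was higher in nmSC (88.1 against 50.4 CPM), and its partner Neo1 was higher in mSC (18.4 against 9.97 CPM), a call that was lost with library size alone. Itgb8, an integrin subunit that releases TGF-beta from its latent form, was abundant, at 730.4 CPM in mSC and 590.1 CPM in nmSC. It missed the threshold (0.31 ± 0.14, adjusted p = 0.0927, edgeR), passed it without mSC replicate 4 (0.44, adjusted p = 0.00208) and was -0.25 with library size alone. Itgav, another integrin subunit, was at 84.6 CPM in mSC and 95.7 CPM in nmSC and did not pass the test (-0.18 ± 0.22 on the log2 scale, 0.079 without mSC replicate 4).

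Of 13 secreted inhibitors outside the members, 9 were tested and 3 were higher in each gate (background 20.4% in mSC and 20.2% in nmSC). Sostdc1, which binds BMPs and acts on Wnt signaling, was at 145 CPM in mSC and 536 CPM in nmSC (log2 fold change -1.89 ± 0.17, adjusted p = 2.75e-08, edgeR). Nbl1, a BMP binder, was higher in mSC, at 30.0 against 7.35 CPM (2.02 ± 0.20, adjusted p = 1.48e-07, edgeR), and so was Dand5, at 9.41 against 3.90 CPM. Fstl3, which binds activins as Fst does, was at 32.7 CPM in mSC and 20.9 CPM in nmSC, and its call was lost without mSC replicate 4 (0.36, adjusted p = 0.0531, edgeR), without nmSC replicate 4 and with library size alone. Fstl1 lay at 261 and 285 CPM and did not pass the test.

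Of 23 Smad partners and regulators, 22 were tested, 5 were higher in mSC and 6 were higher in nmSC (background 20.4% and 20.2%). The ubiquitin ligases of this list did not share a direction: Rnf165 (Arkadia-like, a positive regulator of BMP signals) was at 1.13 CPM in mSC and 9.19 CPM in nmSC, Wwp1 at 107 and 334 CPM, and Wwp2 at 138 and 68.3 CPM. The log2 fold changes were -3.11 ± 0.31 for Rnf165, -1.64 ± 0.12 for Wwp1 and 1.02 ± 0.15 for Wwp2. Rnf165, at a mean of 0.505 RPKM, lay at the level of the receptor genes of smell. Fkbp1a, which holds type I receptors inactive, rose from 753 CPM in nmSC to 1454 CPM in mSC, and Zeb2, a Smad-binding repressor needed for myelination, was at 383 CPM in mSC and 540.2 CPM in nmSC.

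Genes known as transcriptional targets of BMP Smads numbered 13, Smad6 and Smad7 among them. Of these, 9 were tested, and 4 were higher in nmSC (background 20.2%) and 0 higher in mSC by edgeR (0 at an unadjusted p under 0.05, 0 by DESeq2 and 1 by edgeR without mSC replicate 4). Of the 4, Atoh8 (0.451 RPKM) and Msx1 (0.222 RPKM) lay at the level of the receptor genes of smell. Id2 was at 169 CPM in mSC and 445 CPM in nmSC (log2 fold change -1.41 ± 0.19, adjusted p = 8.34e-06, edgeR), whereas Id3, at 22.4 and 25.2 CPM, did not pass the test. Hey1, a repressor also known as a Notch target, was at 12.8 CPM in mSC and 18.0 CPM in nmSC (-0.49 ± 0.18, adjusted p = 0.0341, edgeR), and its call was lost with the Wald test of DESeq2 (adjusted p = 0.0585) and without nmSC replicate 2 (-0.31, adjusted p = 0.174). Known targets of TGF-beta Smads numbered 20, with Ltbp2 and Smad7 among them, of which 18 were tested, 3 were higher in mSC and 9 were higher in nmSC (background 20.4% and 20.2%). Among the collagen and matrix genes of this list, Col1a2 was at 1820.0 CPM in mSC and 3761 CPM in nmSC (-1.05 ± 0.16, adjusted p = 2.42e-05, edgeR). Col3a1 was at 876 CPM in mSC and 7845 CPM in nmSC, and Postn (periostin) at 136 and 1418 CPM. Cdkn1a, an inhibitor of the cell cycle, moved the other way, at 688 CPM in mSC and 136 CPM in nmSC (2.34 ± 0.25, adjusted p = 3.97e-07, edgeR), as did Tagln, at 24.9 and 4.72 CPM. Pmepa1, which lies in both lists of regulators and targets of TGF-beta, was higher in nmSC, at 16.7 against 7.49 CPM.

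Matrix genes such as Ltbp1, Ltbp4, Col3a1 and Postn are also used by fibroblasts. Of 7 fibroblast-like markers, 1 (Col1a1) was called, higher in nmSC, and Dpt and Pi16 were under 1 CPM in every gate. The summed level of the 7 ranged from 437 to 1034 CPM in mSC and from 2923 to 4101 CPM in nmSC, nearly all of it Col1a1. Without Col1a1 their summed level ranged from 13.5 to 45.0 CPM in mSC and from 14.0 to 20.6 CPM in nmSC, and Pdgfra was at 2.34 CPM in both gates. The part of fibroblasts in the values of these genes was not tested. The proliferation markers Mki67 and Top2a moved with nmSC, at a summed 35.5 to 57.9 CPM in mSC and 472 to 607 CPM in nmSC, and their part in the values of the members was not tested.

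**Figure D4:**
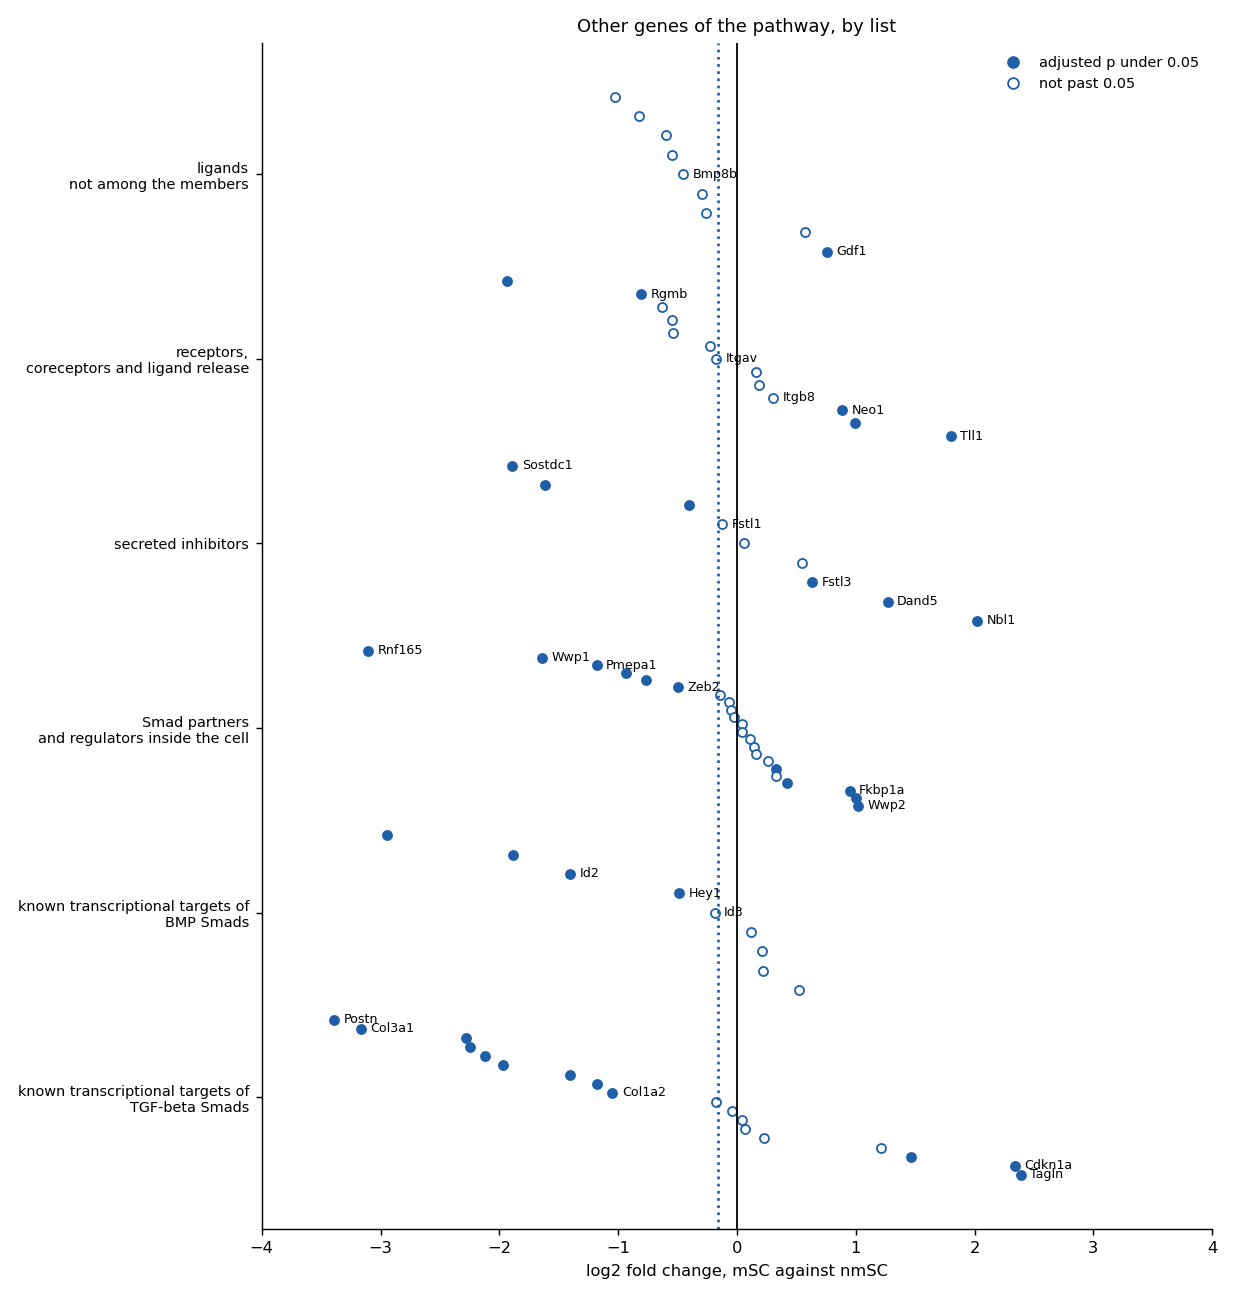
Log2 fold change between mSC and nmSC (horizontal axis, positive values higher in mSC) of the tested genes of 6 further pathway lists, with filled points past an adjusted p of 0.05 and names for the genes picked by their level or change. The dotted line is the median of all tested genes, -0.16. Targets of TGF-beta Smads reach from Postn at -3.39 to Tagln at 2.39.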

How the data were processed

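RNA of eYFP-marked Schwann cells was measured in 12 libraries, 4 per gate. Per the labels' processing notes, bcl2fastq, STAR 2.6.1c, featureCounts and the build GRCm38.p5 were used, and the authors deposited the counts per gene without normalization. The study's methods name a human build, although the identifiers belong to mouse genes. How featureCounts treated strand, reads with several positions and overlapping genes is not given in the sources used here. Symbols, positions and exons came from GENCODE M21 (GRCm38), which matched 25664 of 25700 identifiers.

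From the counts, TMM factors (0.744 to 1.28), the expression filter by gate and the quasi-likelihood test were computed with edgeR 4.0.16 in R 4.3.3, in 1 model over the 3 gates, with Benjamini-Hochberg adjustment over all tested genes and a threshold of 0.05. CPM used the TMM-adjusted library total, and RPKM the union of exons in addition. The steps were tested on simulated counts. The floor of 3 counts covers counting error only, since amplified reads are not independent molecules, and SEs and SDs cover the spread between libraries.

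The members and lists were chosen with earlier results of these data known. Members were described by library in every gate where they were called with a mean of at least 10 CPM, and others where a role needed them. Of the other lists, up to 4 called genes and the 2 highest genes with a mean of at least 5 CPM were named. Called genes at the level of the receptor genes of smell were named for that level. Groups came from the sample titles, and the label for the subject gives each library its mouse, which pairs the gates. The deviations of same-numbered libraries from their gate means correlated between -0.225 and 0.246. No libraries of a gate were alike within sampling noise (chi-square per degree of freedom 4.39 to 124.8, genes with at least 20 counts). Alternatives were DESeq2 1.42.0 (size factors and Wald test), library size alone, no filter, a model of only 2 gates at a time, a block for the mouse, and leaving out each library.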

Additional observations from a re-analysis of the deposited data

Results flagged for a closer look

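Over 132 groups of 4 libraries, the members by gate, 7 groups held a library whose distance from the nearest other, relative to the range of the group, was past the 95% critical value of Dixon's test, which chance alone passes in about 1 in 20 groups. In mSC, replicate 4 was low for Tgfbr3, at 95.8 CPM with the others at 183 to 195 CPM, and high for Acvrl1, at 1.87 CPM with the others at 0.233 to 0.348 CPM. In allSC, replicate 4 was high for Tgfbr3, at 415 CPM with the others at 385 to 389 CPM, and for Inhbb, at 1.11 CPM with the others at 0.291 to 0.385 CPM. In nmSC, Ltbp3 was low in replicate 2, at 25.8 CPM with the others at 28.7 to 29.2 CPM. Acvr1 was low in nmSC replicate 4, at 4.28 CPM with the others at 5.94 to 6.14 CPM, and Acvr2b was high in nmSC replicate 1, at 3.93 CPM with the others at 2.09 to 2.30 CPM.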

How the results depend on the processing

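Of the 20 calls between mSC and nmSC, DESeq2's size factors and its Wald test kept all 20 and each gave 8 higher in mSC, with Tgfb2 and Acvr2a added, no filter kept 19, and library size alone kept 15. Of all 18597 tested genes, the size factors of DESeq2 called 4208 higher in mSC and its Wald test 4376, against 3792 in the main fit. With the mouse number as a replicate block (paired by mouse), 4 members were called higher in mSC and 13 higher in nmSC. Of all 18597 tested genes, the block called 3626 and 3547. Between mSC and nmSC it changed no call of a described gene beside those of Acvr2b, Smad2 and Smad9 given above. Against mSC, allSC lost the calls of Bmpr2, Smad5 and Chrd given above. Members higher in mSC than in allSC still numbered 3 with the block, so another member was gained there. Calls gained against allSC were not followed by gene. Library size alone gave 1 member higher in mSC and 23 higher in nmSC, 1 higher in mSC than in allSC, 7 higher in nmSC than in allSC and a median log2 fold change of -0.89, and it reversed the log2 fold change of Bmp6 (-0.015), Ltbp3 (-0.14), Tgfbr1 (-0.37), Tgfbr2 (-0.28), Bmpr2 (-0.10), Acvr2a (-0.19), Smad1 (-0.52), Smad2 (-0.22), Smurf2 (-0.25) and Itgb8 (-0.25). For all tested genes, library size alone called 415 higher in mSC than in allSC and 2207 higher in nmSC than in allSC, against 1630 and 526 in the main fit. Size factors of DESeq2 and its Wald test each gave 5 members higher in mSC than in allSC (2093 and 2398 of all tested genes), medians of -0.26 and -0.26, and values of 0.024 and 0.0048 for Ltbp2. Only the 8 libraries of the compared gates gave 3 members higher in mSC than in nmSC, beside 3364 of 16948 tested genes. They gave 6 members higher in nmSC than in allSC, beside 1149 of 18137 tested genes, where the main fit called 526 of 18597. The median of the members minus that of all tested genes was -0.16, and -0.053 without the filter. When 1 library was left out, the members higher in mSC than in nmSC numbered 2 (without nmSC replicate 2) to 8, those higher in nmSC 12 to 15, those higher in allSC than in mSC 5 (without allSC replicate 4 or mSC replicate 2) to 10, those higher in mSC than in allSC 2 to 4, and those higher in nmSC than in allSC 2 to 6, and the difference of medians ranged from -0.18 to -0.088 (without mSC replicate 4). The counts over all tested genes moved in these fits too. They ranged from 3263 to 4042 higher in mSC than in nmSC and from 2911 to 3948 higher in nmSC. Against mSC, 1196 to 1930 were higher in allSC and 1009 to 2274 higher in mSC, and 306 to 968 were higher in nmSC than in allSC. With 1 library left out, Ltbp2 ranged from -0.36 to 0.33, Smad1 from -0.041 to 0.14 and Itgav from -0.28 to 0.079. The causes of these changes were not tested. The number of members with at least 1 RPKM was 22, and 25 on the longest transcript. Bmp2, Inhbb, Gdf15, Smad6, Smad7 and Grem1 did not pass the filter and were not tested.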
